A study of Mus musculus with 18 samples.

Results

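Mouse embryonic stem cells were compared after 48 h with and without doxycycline (Dox), at day 0 and before they were formed into gastruloids, aggregates of stem cells that model the early embryo. The comparison holds 6 of the series' 18 libraries, and its members were chosen by their labels alone: 3 libraries with Dox at 500 ng/ml and 3 control libraries without it. The cells were of the line RHKI(E14Tg2a), and every library, control included, carried the HA-Rnaseh1 knock-in. E14Tg2a is a male mouse stem cell line selected for lack of Hprt activity. The medium was 2i/LIF with 2% FBS, in which CHIR-99021 at 3 µM inhibits GSK3 and so keeps Wnt signalling active, and PD0325901 at 1 µM inhibits MEK. The other 12 libraries, Dox and control at day 3 and at day 5, entered the model to estimate the spread of each gene. No library held Dox-treated cells without the knock-in, so effects of Dox itself and of the induced Rnaseh1 cannot be told apart. The labels name 1 line and do not say whether replicates were separate cultures, so p-values measure the spread between these libraries.

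RNase H1, the product of Rnaseh1, cuts RNA that is paired with DNA. Such RNA:DNA hybrids form with a displaced DNA strand as R-loops where transcripts reanneal to their template, often near promoters, and one isoform of the enzyme acts in mitochondria. The series title sets R-loops beside the histone variant H2A.Z and lineage choice, and the day 0 comparison asks what induction of the nuclease changed in stem cells before differentiation began. In 2i medium, stem cells hold a naive state with high Pou5f1, Nanog, Esrrb and Zfp42.

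The libraries held 25748897 to 35318785 counts, and 17795 genes were tested. Values below are CPM, counts scaled to the size of each library with TMM factors, and a gene is called higher or lower where its Benjamini-Hochberg adjusted p in edgeR's quasi-likelihood test was under 0.05 over all genes tested. The 9 stem cell markers were present in all 6 libraries: Pou5f1 averaged 1190 ± 50 CPM with Dox and 1210 ± 70 CPM in control (SD, n = 3 each). Nanog averaged 1070 ± 60 CPM with Dox and 963 ± 71 CPM in control, and neither was called. Dox replicate 2 stood apart: 4.76% of its counts lay in 1 rRNA gene (Wilson 95% interval 4.75 to 4.77%, counting error only), against 0.144 to 0.483% in the other 17 libraries of the series. Its 39 replication-dependent histone genes held 0.00979% of the counts, against 0.00162 to 0.00357% elsewhere. Results below are therefore given with and without it. Over the marker lists of fibroblasts, primitive endoderm, trophectoderm, neural progenitors and mesoderm, 1 gene was called, the fibroblast marker Pdgfrb, which was lower. The fibroblast list (9 tested) summed to 6.05, 9.47 and 6.31 CPM with Dox and 10.8, 10.8 and 7.75 CPM in control, with Postn at 0 in all 6 libraries. The neural progenitor list (8 tested) summed to 13.8, 20.5 and 20.9 CPM with Dox and 11.8, 11.9 and 17.4 CPM in control, and its Pax6 had an edgeR adjusted p of 0.106, or 0.041 with the replicate block. The part of such cells in the results below was not tested. In bulk RNA, fewer cells of a type and less RNA per cell cannot be told apart.

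With Dox, 185 genes were called (1.04% of those tested), 52 higher (0.292%) and 133 lower (0.747%), with a median log2 fold change of 0.56 for the higher and -0.42 for the lower genes. Of these, 11 of the higher and 17 of the lower genes differed by more than 1 on the log2 scale. All 185 had the same sign in the 3 pairs of libraries with the same replicate number. The calls rest on these same libraries, so this agreement is no independent evidence, and its share over all genes was not counted. The 3 Dox and 3 control libraries did not overlap for 52 of the higher and 129 of the lower genes. Among all genes tested 816 (4.59%) lay wholly higher and 1003 (5.64%) wholly lower. Across all tested genes the median log2 fold change was 0.00.

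The number of calls moved with the libraries and the spread used. With the replicate number as a block, 101 genes were higher (0.568%) and 212 lower (1.19%), and 184 of the 185 were among them. Without Dox replicate 2, 22 were higher (0.121%) and 54 lower (0.296%), and 67 of the 185 were among them. Leaving out control replicate 1 gave 30 higher and 68 lower, control replicate 3 gave 100 and 203, Dox replicate 1 gave 102 and 171, and Dox replicate 3 gave 160 and 252. With only the 6 day 0 libraries and no block, the spread came from 4 residual degrees of freedom and 3 genes were called, 2 higher (0.0131%) and 1 lower (0.00656%). At an unadjusted p under 0.05 the same fit counted 840 of the 15246 genes it tested. Its common biological coefficient of variation was 0.144, against 0.09 over all 18 libraries. Without a block the pooled spread of the main fit was thus too small for day 0. With the block, those 6 libraries gave 44 higher (0.289%) and 93 lower (0.61%). In all, 37 genes, 9 higher and 28 lower, were called in 4 fits: all 18 libraries with and without the block, day 0 alone with the block, and all but Dox replicate 2. They are called the firm genes below.

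Rnaseh1, on chromosome 12 (28649602 to 28659589, GRCm38), checked the labels. It stood at 172, 137 and 149 CPM in Dox libraries and at 25.8, 30.3 and 28.7 CPM in control libraries, so every Dox library lay above every control library. The fold was 5.39 (log2 2.43 ± 0.08 SE, edgeR adjusted p 4.07e-13). The length that RSEM weighted for Rnaseh1 by its transcripts was 1370, 1360 and 1366 bases in Dox libraries and 1406, 1411 and 1419 bases in control libraries. The 2 ranges did not overlap, so the mix of annotated transcripts that reads were assigned to also differed. These tables do not separate the knock-in copy from the endogenous gene.

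Hprt, the purine salvage enzyme on chromosome X (52988137 to 53021659), changed more than the knock-in gene. Its level was 378, 294 and 328 CPM in Dox libraries and 11.6, 13.2 and 12.3 CPM in control libraries. The fold was 26.9 (log2 4.75 ± 0.09 SE, edgeR adjusted p 7.81e-17). Its weighted length was 1289 bases in all 6. In both genes Dox replicate 1 was the highest and Dox replicate 2 the lowest of the treated libraries. The labels do not say where in the genome the knock-in lies. Around Hprt, 22 genes within 1 Mb on either side were tested. Of these 19 had a negative log2 fold change, and the median was -0.33, or -0.30 without Dox replicate 2. Many were near the floor, such as Plac1, Gm15482 and Kis2, which averaged 0, 0.039 and 0.078 CPM with Dox. The most abundant, Gpc3, Fam122b, Gpc4 and Phf6, had log2 fold changes of -0.17, -0.07, 0.05 and -0.13 and were not called. Called lower were 2 of the 22. Ccdc160 averaged 8.76 ± 1.5 CPM with Dox and 14.2 ± 1.7 CPM in control, with an edgeR adjusted p of 0.00551. Rtl8b, one of the genes derived from a retrotransposon gag, averaged 7.99 ± 2.3 CPM with Dox and 11.8 ± 0.71 CPM in control, with an edgeR adjusted p of 0.0372. With control replicate 1, control replicate 2, Dox replicate 1 or Dox replicate 2 left out, that p was 0.128, 0.0557, 0.0722 and 0.118. Of the 4 tested genes within 1 Mb of Rnaseh1 none was called.

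**Figure D1:**
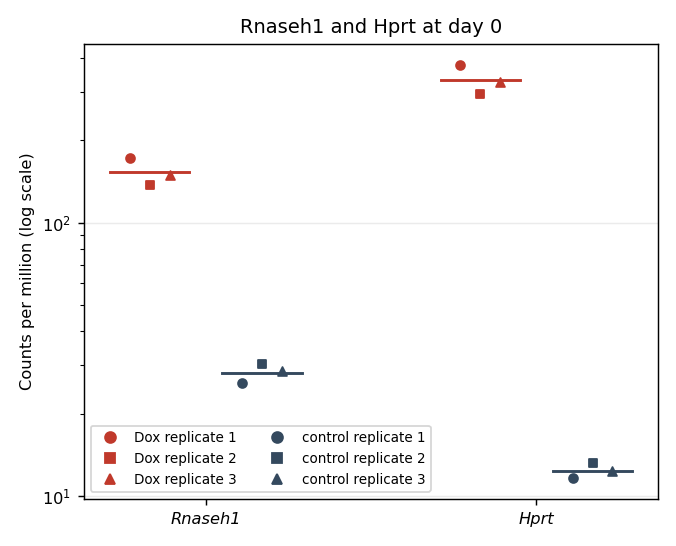
CPM of Rnaseh1 and Hprt on a log axis in each day 0 library, with Dox libraries to the left of control libraries and the group mean as a bar. The 3 Dox libraries lie at 137 to 172 CPM for Rnaseh1 and at 294 to 378 CPM for Hprt, above all control libraries.

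The promoters shown next belong to the gene groups that the results turn on. The first 2 are of genes for amino acid and stress responses that were higher with Dox, and the capitals mark TGATGNAA or its reverse complement TTNCATCA, a composite site that ATF4 binds with C/EBP partners. The next 3 are of lysosomal genes that were lower with Dox, and the capitals mark GTCACGTG or its reverse complement CACGTGAC, the core of the CLEAR element read by TFEB and TFE3, which contains the E-box CACGTG. The last is the stretch between the start sites of S100a13 and S100a1, which were both lower. All are RefSeq sequence (GRCm38.p6), written 5′ to 3′ on the strand of the gene, and the gene windows end at the base before the annotated start. Ctsa has 2 annotated starts, and the window of the second is shown.
Chac1, chr2:119350992-119351241, plus strand: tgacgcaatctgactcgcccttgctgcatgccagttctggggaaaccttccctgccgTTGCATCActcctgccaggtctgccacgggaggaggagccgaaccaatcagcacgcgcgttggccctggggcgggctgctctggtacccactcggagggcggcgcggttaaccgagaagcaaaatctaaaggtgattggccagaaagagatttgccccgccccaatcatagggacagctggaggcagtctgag
Pck2, chr14:55540016-55540265, plus strand: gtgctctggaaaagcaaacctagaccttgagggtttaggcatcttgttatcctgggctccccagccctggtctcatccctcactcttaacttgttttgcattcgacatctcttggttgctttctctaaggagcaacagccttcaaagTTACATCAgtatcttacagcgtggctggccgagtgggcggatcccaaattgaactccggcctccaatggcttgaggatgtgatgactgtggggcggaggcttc
Mcoln1, chr8:3500269-3500518, plus strand: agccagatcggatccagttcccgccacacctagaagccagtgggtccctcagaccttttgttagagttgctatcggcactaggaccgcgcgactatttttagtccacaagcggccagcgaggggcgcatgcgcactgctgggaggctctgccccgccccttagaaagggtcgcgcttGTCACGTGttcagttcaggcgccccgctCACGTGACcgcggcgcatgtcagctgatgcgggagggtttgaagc
Lamp1, chr8:13158911-13159160, plus strand: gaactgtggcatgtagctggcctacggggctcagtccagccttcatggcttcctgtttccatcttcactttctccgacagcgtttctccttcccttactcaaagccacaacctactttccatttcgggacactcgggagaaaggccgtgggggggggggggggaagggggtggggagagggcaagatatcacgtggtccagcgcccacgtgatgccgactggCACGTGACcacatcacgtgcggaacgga
Ctsa, chr2:164833523-164833772, plus strand: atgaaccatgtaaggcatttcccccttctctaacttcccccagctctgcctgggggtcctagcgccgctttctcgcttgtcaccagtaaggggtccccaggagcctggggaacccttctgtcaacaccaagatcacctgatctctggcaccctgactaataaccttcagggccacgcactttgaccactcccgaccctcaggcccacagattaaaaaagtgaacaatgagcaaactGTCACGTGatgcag
S100a13 to S100a1, chr3:90514331-90514434, plus strand: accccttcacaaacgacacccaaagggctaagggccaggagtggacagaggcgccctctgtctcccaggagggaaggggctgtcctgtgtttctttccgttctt

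The windows searched ran from 250 bases before to 50 after each start, on both strands. TGATGNAA was in 3.97% of all 32851 windows and in a window of 4.51% of all genes. Of the 11 called amino acid and stress genes 10 have a window, and 2 of these held it, Chac1 and Pck2. In Chac1 it began 193 bases before the start, and in Pck2 103 bases before it. GTCACGTG was in 2.25% of all windows and in a window of 2.55% of all genes. Of 19 called lysosomal, V-ATPase and folliculin-pathway genes 16 have a window, and 4 of these held it, Atp6v0d1, Ctsa, Lamp1 and Mcoln1. CACGTG, which lies within it, was in 7.15% of all windows. The shares of all genes are over 27025 genes with a window, whether tested here or not. Shares over the tested genes alone were not counted. These matches are letters in a window and not a measured binding event.

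A set of 11 genes of amino acid supply and of the integrated stress response rose with Dox. In that response, phosphorylated eIF2 favours translation of the transcription factor ATF4, whose targets make, import and charge amino acids. Across 5 lists of this kind, 11 genes were called higher and 0 lower, against 0.292% higher and 0.747% lower among all tested genes. These lists follow genes that earlier results of these data had pointed to, so their counts are no independent evidence. The serine, glycine and one-carbon enzymes had 4 higher of 16 gene IDs tested, and the proline, asparagine, alanine and glutamate enzymes 3 of 14. The response's regulators had 2 of 16, the amino acid transporters 1 of 17 and the cytosolic aminoacyl-tRNA synthetases 1 of 19. The medians of these lists were 0.09, 0.04, 0.43, 0.22 and 0.17 on the log2 scale, against 0.00 for all tested genes. Without Dox replicate 2 the lists held 1, 3, 1, 1 and 0 calls, with medians of 0.09, 0.05, 0.22, 0.17 and 0.08. With the replicate block the regulators had 4 calls and the tRNA synthetases 4.

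Phgdh, Psat1 and Psph encode the 3 enzymes of serine synthesis from 3-phosphoglycerate, and all were called higher. Phgdh, the first of them, stood at 99.2, 133 and 117 CPM in Dox libraries and at 76.5, 84.4 and 73.8 CPM in control libraries (log2 0.57 ± 0.08 SE, edgeR adjusted p 0.00161). Psat1, the aminotransferase, stood at 393, 507 and 393 CPM in Dox libraries and at 310, 360 and 295 CPM in control libraries (log2 0.42 ± 0.08 SE, edgeR adjusted p 0.018). Psph, the phosphatase that ends the pathway, stood at 41, 56.5 and 47.6 CPM in Dox libraries and at 29.5, 35.4 and 35.9 CPM in control libraries (log2 0.53 ± 0.10 SE, edgeR adjusted p 0.0122). No Dox library overlapped a control library in these genes, and Dox replicate 2 was the highest in each. Mthfd2, the mitochondrial one-carbon enzyme downstream of serine, stood at 95, 129 and 93.1 CPM in Dox libraries and at 60.5, 78.8 and 63.5 CPM in control libraries (log2 0.64 ± 0.12 SE, edgeR adjusted p 0.0118). Phgdh was called in each of the 6 fits that left out 1 library. The adjusted p of Psat1, Psph and Mthfd2 was 0.0737, 0.0715 and 0.0648 without Dox replicate 2 and 0.0744, 0.0643 and 0.0643 without control replicate 1. Shmt2, the mitochondrial serine hydroxymethyltransferase, had a log2 fold change of 0.38 with an adjusted p of 0.0558 and was not called.

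Aldh18a1, which makes the precursor of proline, stood at 78.1, 99.5 and 70.6 CPM in Dox libraries and at 50.7, 57.4 and 50.3 CPM in control libraries. It was higher in every Dox library (log2 0.65 ± 0.09 SE, edgeR adjusted p 0.00156) and in each of the 6 fits that left out 1 library. Pck2, the mitochondrial phosphoenolpyruvate carboxykinase, stood at 94.1, 151 and 91.3 CPM in Dox libraries and at 61.7, 75.2 and 56.9 CPM in control libraries (log2 0.80 ± 0.15 SE, edgeR adjusted p 0.0105). Gpt2, the mitochondrial alanine aminotransferase, stood at 74.9, 113 and 75 CPM in Dox libraries and at 56.4, 59.5 and 60.9 CPM in control libraries (log2 0.57 ± 0.11 SE, edgeR adjusted p 0.0162). In both the groups did not overlap and Dox replicate 2 was the highest. Both were also called without that library, at adjusted p 0.0252 for Pck2 and 0.0198 for Gpt2, with log2 fold changes of 0.52 and 0.35. Without control replicate 1 the adjusted p was 0.0506 for Pck2 and 0.0691 for Gpt2. Asns, the asparagine synthetase, had a log2 fold change of -0.01 ± 0.08 (SE) and was not called.

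Chac1, a glutathione-degrading enzyme that ATF4 and CHOP induce, had the largest change of the stress regulators. It stood at 12.6, 30.8 and 11.1 CPM in Dox libraries and at 4.68, 8.85 and 6.03 CPM in control libraries, a 2.75-fold difference (log2 1.46 ± 0.33 SE, edgeR adjusted p 0.0372). Dox replicate 2 lay far above the other Dox libraries. Without it the log2 fold change was 0.84 and the adjusted p 0.185, and the adjusted p was 0.142 without control replicate 1 and 0.0734 without control replicate 3. Ddit4, an inhibitor of mTORC1 that stress induces, stood at 38.2, 49.2 and 44.3 CPM in Dox libraries and at 26.7, 28.5 and 34.8 CPM in control libraries (log2 0.55 ± 0.09 SE, edgeR adjusted p 0.00593), and was called in all 6 fits that left out 1 library. Atf4 itself had a log2 fold change of 0.32 ± 0.13 (SE) with an adjusted p of 0.293, Trib3 one of 0.87 ± 0.23 with 0.0763, and Ddit3, which encodes CHOP, one of -0.10 ± 0.19 with 0.915. None of these 3 was called.

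Slc7a6, a transporter of basic and neutral amino acids, was the only called transporter: it stood at 25.5, 25.9 and 26.3 CPM in Dox libraries and at 20.2, 19.8 and 21.4 CPM in control libraries (log2 0.34 ± 0.06 SE, edgeR adjusted p 0.00551). Its values were close within each group, and the call held in all 6 fits that left out 1 library. It was not a firm gene. Its edgeR adjusted p was 0.0937 with day 0 alone and the block, and 0.0669 without pair 2 of day 0. Cars, the cytosolic cysteinyl-tRNA synthetase, averaged 227 ± 20 CPM with Dox and 183 ± 16 CPM in control (SD, n = 3 each), with an edgeR adjusted p of 0.0433. With control replicate 1, control replicate 3 or Dox replicate 2 left out, that p was 0.156, 0.0931 and 0.189. The ER chaperones, which mark the unfolded protein response of that compartment, had 0 calls of 18 and a median of 0.10, and the mitochondrial chaperones and proteases 0 of 12 and a median of 0.00. With the block 2 ER chaperones were called higher, and 15 of the 18 had a positive log2 fold change in the main fit. At an unadjusted p under 0.05 in edgeR there were 9 of them, against 2197 of all 17795 genes tested. The list of eIF2alpha kinases and phosphatases had 0 of 8. Eif2b5, which encodes a subunit of the exchange factor eIF2B and was picked after its values were seen, was lower: it averaged 322 ± 39 CPM with Dox and 420 ± 34 CPM in control (edgeR adjusted p 0.00937, and 0.0654 without Dox replicate 2).

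**Figure D2:**
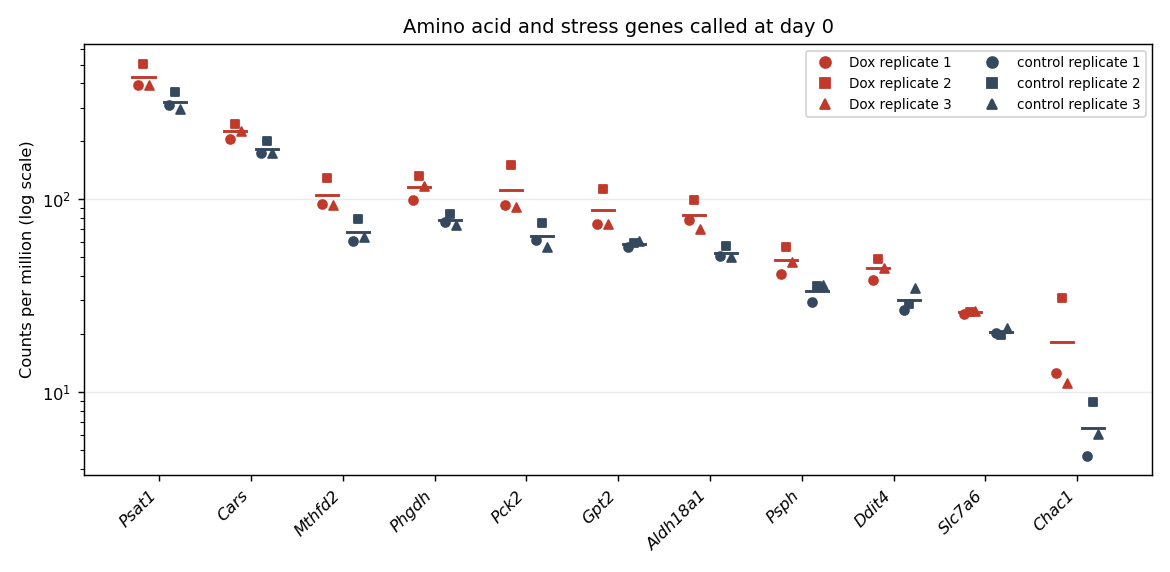
CPM on a log axis of the 11 called genes of the amino acid and stress lists in each day 0 library, with Dox to the left of control, symbols by replicate number and bars at group means. The groups do not overlap in any of the 11 genes, and the square of Dox replicate 2 is the highest in each but Slc7a6, as for Chac1 at 30.8 CPM.

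A group of 10 lysosomal genes fell with Dox. Lysosomes degrade proteins, lipids and glycans with acid hydrolases, and their genes are controlled together by TFEB and TFE3. Of 35 lysosomal genes tested, 10 were called lower and 0 higher, 28 had a negative log2 fold change, and the median was -0.19. Without Dox replicate 2, 2 were called lower and the median was again -0.19. Over all tested genes 0.747% were called lower and 0.292% higher, with a median of 0.00. Without Dox replicate 2 those shares were 0.296% and 0.121%. The same shares stand beside the counts of the lists that follow. The lysosome list too was known from earlier results of these data.

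Mcoln1, the calcium channel of lysosomes, stood at 30.1, 32.2 and 30.6 CPM in Dox libraries and at 39.3, 39.8 and 36.2 CPM in control libraries (log2 -0.31 ± 0.06 SE, edgeR adjusted p 0.0185). Manba, beta-mannosidase, had the largest change of the list and stood at 14.5, 5.96 and 10 CPM in Dox libraries and at 22.5, 16.4 and 18.7 CPM in control libraries (log2 -0.92 ± 0.20 SE, edgeR adjusted p 0.0359). The Dox libraries lay below all control libraries in both genes. Mcoln1 had an adjusted p of 0.0729 without control replicate 1 and 0.0553 without control replicate 2, and Manba one of 0.134 without control replicate 1 and 0.0862 without Dox replicate 2.

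Npc2, which hands cholesterol out of the lysosome, averaged 235 ± 6.4 CPM with Dox and 306 ± 44 CPM in control (SD, n = 3 each, edgeR adjusted p 0.0166, and 0.0732 without Dox replicate 2). Grn, progranulin, averaged 220 ± 33 CPM with Dox and 287 ± 27 CPM in control, with an edgeR adjusted p of 0.0293. Its Dox replicate 3, at 258 CPM, lay within 1 CPM of control replicate 1. Ctsa, a serine carboxypeptidase that protects neuraminidase and beta-galactosidase, averaged 132 ± 15 CPM with Dox and 174 ± 26 CPM in control (edgeR adjusted p 0.0372), and Hexa, the alpha subunit of beta-hexosaminidase, 141 ± 16 CPM with Dox and 182 ± 14 CPM in control (edgeR adjusted p 0.0245). Leaving out control replicate 2 gave Grn, Ctsa and Hexa an adjusted p of 0.0968, 0.119 and 0.0815, leaving out Dox replicate 1 gave 0.0778, 0.0985 and 0.0692, and leaving out Dox replicate 2 gave 0.131, 0.118 and 0.115. The V-ATPase subunit Atp6v0d1 and the membrane protein Lamp1 had log2 fold changes of -0.30 and -0.23 with edgeR adjusted p of 0.0358 and 0.0483. With control replicate 2, Dox replicate 1 or Dox replicate 2 left out, the adjusted p was 0.112, 0.0676 and 0.131 for Atp6v0d1 and 0.136, 0.102 and 0.141 for Lamp1. Without control replicate 1 that of Atp6v0d1 was 0.0661.

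Further lists were drawn up after the calls were seen, each from the known members of a family, and they are given as description. Of 26 further lysosomal hydrolases and their partners tested 6 were called lower and 0 higher, with a median of -0.10 and 1 call without Dox replicate 2, and of 16 V-ATPase subunits 2 were lower, with a median of -0.18 and 1 call. Among 15 genes of folliculin, the Rag GTPases, the Ragulator and the TFE factors, 3 were called lower, with a median of -0.07, and 5 with the block. Those 3 were also called without Dox replicate 2. The lysosome, further hydrolase, V-ATPase and folliculin lists share members, and 19 distinct genes were called over them. Flcn, folliculin, which as the activator of RagC and RagD links amino acids to TFE3, stood at 52.7, 47.4 and 55.7 CPM in Dox libraries and at 67.9, 65.5 and 68.1 CPM in control libraries (log2 -0.37 ± 0.06 SE, edgeR adjusted p 0.00406). Its partner Fnip2 stood at 31.6, 38.2 and 26.4 CPM in Dox libraries and at 49.4, 47.1 and 42.6 CPM in control libraries (log2 -0.53 ± 0.10 SE, edgeR adjusted p 0.0155, and 0.0672 without control replicate 1). Rragd, the RagD GTPase and a TFE target, stood at 57.6, 60.5 and 69.9 CPM in Dox libraries and at 76.1, 88.8 and 86.3 CPM in control libraries (log2 -0.42 ± 0.07 SE, edgeR adjusted p 0.00593). Every Dox library lay below every control library in these 3 genes. Of 20 retromer, WASH and HOPS genes, which sort endosomal cargo and tether endosomes to lysosomes, 4 were lower and 1 was so without Dox replicate 2.

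**Figure D3:**
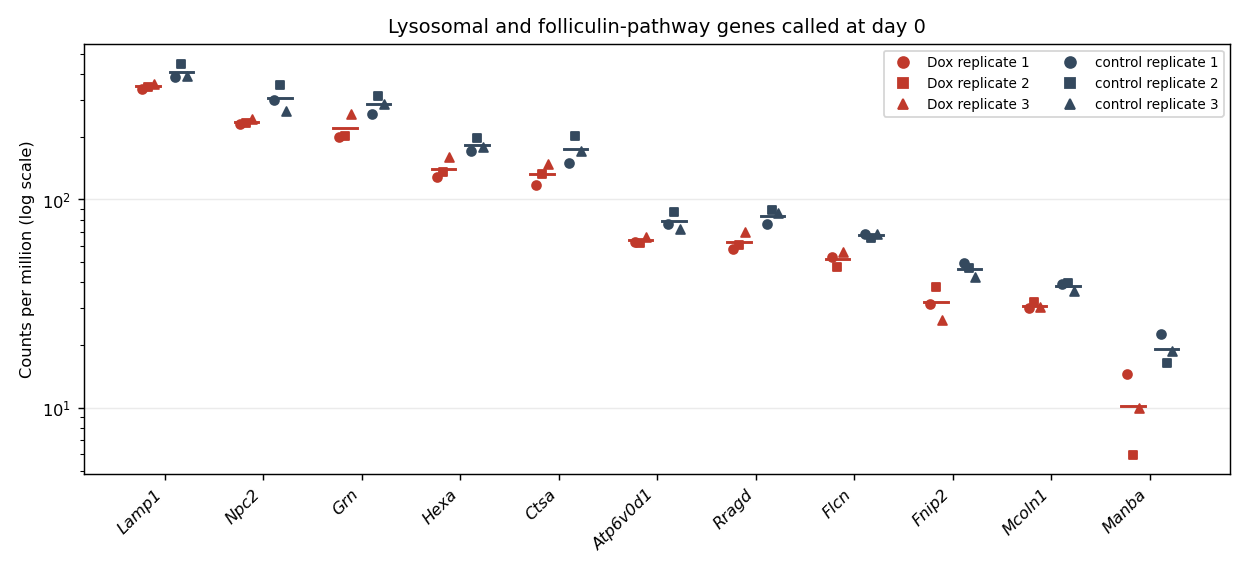
CPM on a log axis of 8 called lysosomal genes with Rragd, Flcn and Fnip2 in each day 0 library, with Dox to the left of control, symbols by replicate number and bars at group means. Each Dox mean lies below its control mean, from 10.2 against 19.2 CPM for Manba to 349 against 409 CPM for Lamp1.

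Glutathione and thioredoxin keep the cell interior reduced. Of 16 genes of this metabolism tested, 4 were called lower with Dox and 0 higher, with a median of -0.15. Without Dox replicate 2, 2 were called and the median was -0.06. Gss, glutathione synthetase, stood at 194, 179 and 222 CPM in Dox libraries and at 265, 293 and 255 CPM in control libraries (log2 -0.45 ± 0.07 SE, edgeR adjusted p 0.00314). Gsr, which reduces oxidised glutathione, stood at 177, 177 and 170 CPM in Dox libraries and at 214, 233 and 207 CPM in control libraries (log2 -0.32 ± 0.05 SE, edgeR adjusted p 0.00314). The groups did not overlap in either gene, and both were called in all 6 fits that left out 1 library. Gclm, the modifier subunit of the first enzyme of glutathione synthesis, and Txnrd1, thioredoxin reductase, had log2 fold changes of -0.26 and -0.22 with adjusted p of 0.0143 and 0.0346. Without Dox replicate 2 those were 0.0628 and 0.132, and without control replicate 1 0.0721 and 0.0506. Txnrd1 had 0.079 without control replicate 3 and 0.0722 without Dox replicate 1. Nqo1, another target of the transcription factor NRF2, had a log2 fold change of -0.36 with an adjusted p of 0.0564, and Hmox1 one of -0.03. Of 23 NRF2 targets listed after the calls were seen 7 were lower and 0 higher, with a median of -0.22, and 3 were lower without Dox replicate 2.

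Of 16 genes for peroxisomal oxidation, listed in the same way, 15 were tested and 3 were lower, with a median of -0.16. With Dox replicate 2 left out, 1 was lower and the median was -0.13. Acox3, a peroxisomal acyl-CoA oxidase, averaged 45.5 ± 6.8 CPM with Dox and 68.1 ± 8.5 CPM in control (SD, n = 3 each), with an edgeR adjusted p of 0.00665, and was a firm gene. Mitochondrial lists gave few or no calls: of 29 nuclear respiratory chain subunits, 20 mitochondrial ribosomal proteins and 13 mitochondrially encoded mRNAs 0 were called, with medians of 0.01, 0.01 and 0.12. With the replicate block 1 of the 13 was called higher. This was mt-Cytb, cytochrome b, which stood at 4420, 4690 and 4240 CPM in Dox libraries and at 3470, 4180 and 3460 CPM in control libraries. The groups did not overlap, and its edgeR adjusted p was 0.0547, or 0.00899 with the block. The log2 fold change of mt-Cytb was 0.27 at day 0, and in the later libraries it was 0.32 (day 3, adjusted p 0.387) and 0.31 (day 5, adjusted p 0.00675).

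Targets of Wnt signalling report the pathway that CHIR-99021 keeps active in these cells. Of 20 tested, 3 were called lower with Dox and 1 higher, 17 had a negative log2 fold change, and the median was -0.44. Without Dox replicate 2 the median was -0.52, with 1 called lower and 1 higher. Cdx1, a caudal homeobox gene, stood at 17.7, 10.7 and 9.95 CPM in Dox libraries and at 48, 45.9 and 26.6 CPM in control libraries, a 3.15-fold lower level (log2 -1.66 ± 0.21 SE, edgeR adjusted p 0.000586), and was called in all 6 fits that left out 1 library. Sp5, a zinc finger gene that Wnt induces directly, stood at 17.3, 7.68 and 3.65 CPM in Dox libraries and at 45.7, 41.1 and 11.1 CPM in control libraries (log2 -1.79 ± 0.41 SE, edgeR adjusted p 0.0424). In both genes replicate 3 was the lowest of its group, and for Sp5 control replicate 3 lay below Dox replicate 1, so the groups overlapped. With control replicate 1, control replicate 2, Dox replicate 2 or Dox replicate 3 left out, the adjusted p of Sp5 was 0.156, 0.111, 0.155 and 0.0658. Axin2, the feedback inhibitor of the pathway, stood at 51.7, 29.4 and 18.1 CPM in Dox libraries and at 77.8, 65.2 and 36.9 CPM in control libraries, and was not called (log2 -0.86 ± 0.26 SE, edgeR adjusted p 0.123). Within each replicate number its Dox library was the lower one. Brachyury, the gene T, had a log2 fold change of -1.65 ± 0.47 (SE) with an adjusted p of 0.105.

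Wnt5b, a ligand, was also called lower, at 1.7 ± 0.61 CPM with Dox and 3.31 ± 0.48 CPM in control (SD, n = 3 each, edgeR adjusted p 0.0366, and 0.129, 0.0553 and 0.131 with control replicate 1, control replicate 2 or Dox replicate 2 left out). Its annotated span holds Fbxl14 on the other strand, so the reads of both are uncertain. Ccnd1, cyclin D1 of the G1 phase, was called higher: it stood at 116, 118 and 89.7 CPM in Dox libraries and at 81.9, 73.1 and 57.2 CPM in control libraries (log2 0.61 ± 0.10 SE, edgeR adjusted p 0.00593), with no overlap, and was called in all 6 fits that left out 1 library. Of 18 targets of FGF and ERK signalling, which PD0325901 blocks, 1 was called lower and the median was -0.16, or -0.29 with 0 calls without Dox replicate 2. The called gene was Spry1, a feedback inhibitor, at 3.94, 3.86 and 3.72 CPM in Dox libraries and 4.95, 5.55 and 5.39 CPM in control libraries. Its edgeR adjusted p was 0.0499, 0.0531 with the replicate block and 0.0641 to 0.127 in the 6 fits that left out 1 library. Dusp10, a phosphatase of stress-activated MAP kinases, was a firm gene, at 4.93, 4.44 and 3.87 CPM in Dox libraries and 8.54, 9.03 and 6.07 CPM in control libraries (log2 -0.84 ± 0.15 SE, edgeR adjusted p 0.00839). Of 10 BMP targets 1 was lower, and the median was -0.11, or -0.18 without Dox replicate 2. Id1 averaged 1.23 ± 0.18 CPM with Dox and 2.08 ± 0.31 CPM in control (edgeR adjusted p 0.0483, and 0.17, 0.0803, 0.118 and 0.107 with control replicate 1, control replicate 2, Dox replicate 2 or Dox replicate 3 left out).

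Genes of the naive state were not called. Of 20 naive and 11 core pluripotency genes 0 passed, with medians of 0.06 and -0.02. At an unadjusted p under 0.05 in edgeR there were 4 naive genes and 1 core gene, against 2197 of all 17795 genes tested. Of 11 formative and primed genes 1 was lower: Dnmt3b, a de novo DNA methyltransferase, stood at 84.7, 71.6 and 84.1 CPM in Dox libraries and at 107, 91.1 and 124 CPM in control libraries (log2 -0.42 ± 0.09 SE, edgeR adjusted p 0.0214, and 0.115, 0.064 and 0.0516 with Dox replicate 2, control replicate 1 or control replicate 3 left out). Otx2, another formative gene, had a log2 fold change of 0.63 ± 0.19 (SE) with an adjusted p of 0.135. Of the 28 R-loop processing factors and 22 H2A.Z histones and remodellers 0 were called, with medians of 0.01 and -0.01. H2afz, which encodes H2A.Z, stood at 648, 682 and 784 CPM in Dox libraries and at 621, 730 and 673 CPM in control libraries, and the groups overlapped. The R-loop list had 5 of 28 genes at an unadjusted p under 0.05 and the H2A.Z list 2 of 22, against the same 2197 of 17795 over all genes. The lists of p53 targets (21), the DNA damage response (21), S phase and mitosis (32) and ribosome biogenesis (26) also had 0 calls, with medians of 0.11, 0.06, 0.04 and 0.04.

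**Figure D4:**
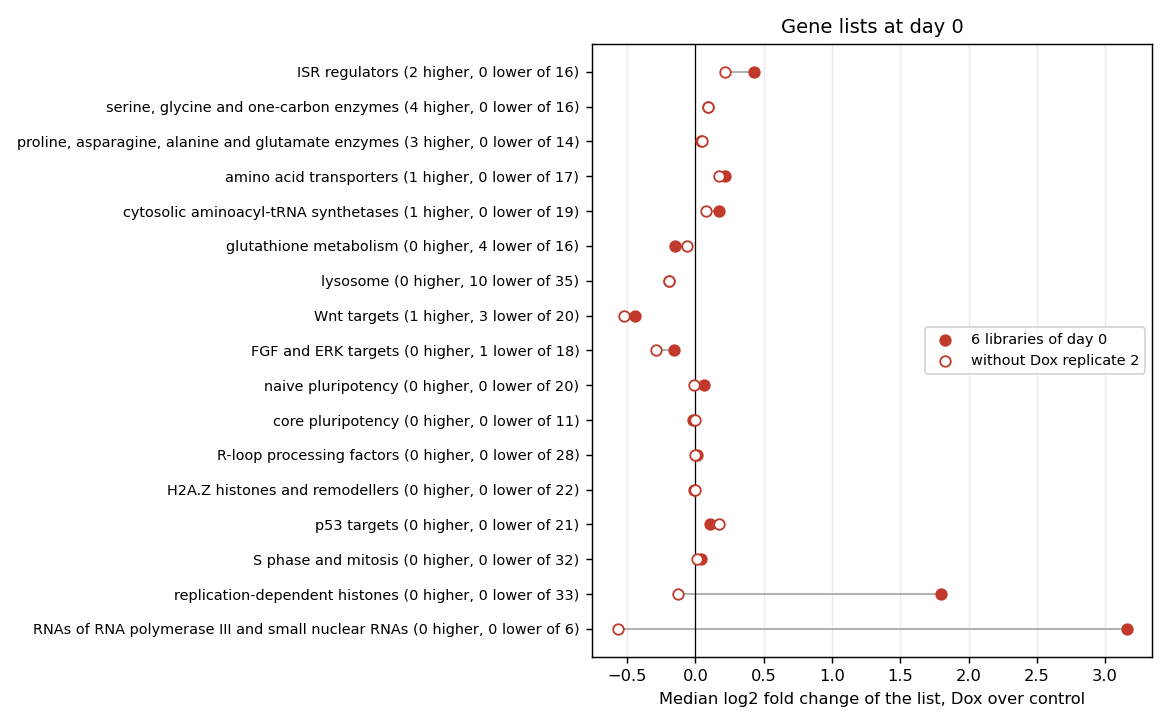
Median log2 fold change, Dox over control, of 17 gene lists at day 0 with all libraries (filled) and without Dox replicate 2 (open), with the calls of each list beside its name. The medians of the histone and small RNA lists are 1.80 and 3.16 with that library and -0.13 and -0.57 without it, while the lysosome list stays at -0.19.

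Histone mRNAs of S phase and most small non-coding RNAs carry no poly(A) tail. The 33 tested replication-dependent histone genes had 0 calls and a median of 1.80, which was -0.13 without that library, and the 6 tested RNAs of RNA polymerase III and small nuclear RNAs had 0 calls and a median of 3.16, which was -0.57. Rn7sk stood at 2.61, 82 and 1.39 CPM in Dox libraries and at 3.59, 3.3 and 1.31 CPM in control libraries. Lars2, a mitochondrial leucyl-tRNA synthetase, stood at 418, 5100 and 307 CPM in Dox libraries and at 415, 562 and 310 CPM in control libraries. Both were high in Dox replicate 2 alone and neither was called. In the same order, the rRNA gene held 0.195, 4.76 and 0.144% of counts in Dox libraries and 0.22, 0.401 and 0.151% in control libraries. Whether reads of rRNA were counted in Lars2 was not tested. With rRNA and histone genes removed, 51 genes were called higher and 126 lower with Dox, all 177 among the 185.

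Neurofilament genes moved in both directions. Nefm, neurofilament medium chain, stood at 29.3, 19.5 and 24.7 CPM in Dox libraries and at 63.5, 68.2 and 56.6 CPM in control libraries, a 2.57-fold lower level (log2 -1.36 ± 0.15 SE, edgeR adjusted p 0.000175). Nefl, the light chain, stood at 57.1, 51 and 41.9 CPM in Dox libraries and at 81.4, 93.4 and 72.9 CPM in control libraries (log2 -0.73 ± 0.12 SE, edgeR adjusted p 0.00551). Their annotated spans overlap on opposite strands of chromosome 14 and the strand setting of the counting is not given in the sources used here, so the share of each in these reads is uncertain. Nefh, the heavy chain on chromosome 11, was called higher, at 33.8, 39.2 and 34.6 CPM in Dox libraries and 26.9, 23.5 and 25.2 CPM in control libraries (log2 0.51 ± 0.10 SE, edgeR adjusted p 0.0162). That p was 0.0862 without Dox replicate 2 and 0.0528 without control replicate 2.

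Some called genes lay side by side. Of the 185, 21 (11.4%) had another called gene within 100 kb, against 5.23% of the tested genes that were not called. S100a13 and S100a1, calcium-binding proteins that start 104 bases apart on opposite strands of chromosome 3, in the last sequence shown above, fell together. S100a13 stood at 14.8, 19 and 19.9 CPM in Dox libraries and at 37.4, 65.5 and 33.2 CPM in control libraries (log2 -1.34 ± 0.19 SE, edgeR adjusted p 0.00249). S100a1 stood at 4.44, 7.02 and 6.05 CPM in Dox libraries and at 10, 16.4 and 10.3 CPM in control libraries (log2 -1.07 ± 0.19 SE, edgeR adjusted p 0.00703). In both, control replicate 2 was the highest library and the groups did not overlap. Of the 6 S100 genes tested, these were the 2 called. Serpinb9b and Serpinb1b, serine protease inhibitors 36691 bases apart on chromosome 13, fell by 1.33 and 1.90 on the log2 scale with edgeR adjusted p of 0.00228 and 0.0257. The second was low throughout, at 0.598 ± 0.079 CPM with Dox and 2.23 ± 0.72 CPM in control, and its adjusted p was 0.0862, 0.0909 and 0.0529 with Dox replicate 2, control replicate 2 or Dox replicate 1 left out. They belong to a family with close copies, so the split of reads between copies is uncertain. Cdx1 has Pdgfrb, a receptor for platelet-derived growth factor, as its called neighbour on chromosome 18. Pdgfrb averaged 3.99 ± 0.79 CPM with Dox and 6.98 ± 1.4 CPM in control (edgeR adjusted p 0.0166, and 0.064 without control replicate 1 and 0.0635 without control replicate 2). It was the 1 call among the 9 fibroblast markers tested.

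Among the higher genes outside the lists, Eif4g3, a scaffold of translation initiation, had the smallest p after the induced genes. It stood at 74.1, 80.2 and 67.9 CPM in Dox libraries and at 52.3, 46.6 and 53.1 CPM in control libraries (log2 0.55 ± 0.06 SE, edgeR adjusted p 0.000312). Actn3, a muscle alpha-actinin, stood at 15.3, 15.2 and 14.6 CPM in Dox libraries and at 9.51, 9.91 and 7.94 CPM in control libraries (log2 0.72 ± 0.11 SE, edgeR adjusted p 0.00385). Every Dox library lay above every control library in both, and both were called in all 6 fits that left out 1 library. Of the listed genes, Hhip, a Hedgehog-binding inhibitor, averaged 13.8 ± 2.5 CPM with Dox and 6.26 ± 1.8 CPM in control, a 2.21-fold difference (edgeR adjusted p 0.0126, and 0.0653 without Dox replicate 2). It was the 1 call among 14 Hedgehog pathway genes tested, whose median was 0.01. Ddr2, a collagen receptor kinase, averaged 15.7 ± 3.1 CPM with Dox and 8.56 ± 1.3 CPM in control (edgeR adjusted p 0.0302, and 0.131, 0.104 and 0.0885 with Dox replicate 2, control replicate 1 or control replicate 2 left out). It was the 1 call among 14 collagens and collagen receptors tested, whose median was 0.17. Slc44a5, a choline-transporter-like gene, was low but firm: it stood at 0.124, 0.234 and 0.219 CPM in Dox libraries and at 1.4, 1.59 and 0.973 CPM in control libraries, a 6.74-fold lower level (edgeR adjusted p 2.58e-05).

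Further firm genes, called in all 6 fits that left out 1 library, were lower with Dox. Myh7b, a myosin heavy chain that hosts a microRNA and lies 18402 bases from Gss, stood at 88.7, 83.4 and 95.5 CPM in Dox libraries and at 149, 150 and 121 CPM in control libraries (log2 -0.65 ± 0.08 SE, edgeR adjusted p 0.000586). Renbp, a renin-binding protein with N-acylglucosamine epimerase activity, stood at 91.6, 99.5 and 118 CPM in Dox libraries and at 141, 186 and 150 CPM in control libraries (log2 -0.63 ± 0.10 SE, edgeR adjusted p 0.00398). The groups did not overlap in either gene. Mest, an imprinted gene expressed from the paternal allele, stood at 36.1, 33.2 and 36.8 CPM in Dox libraries and at 48.4, 49.1 and 55.5 CPM in control libraries (log2 -0.53 ± 0.08 SE, edgeR adjusted p 0.00249). It was the 1 call among 23 imprinted genes tested, whose median was 0.00. Patl2, an RNA-binding protein known from oocytes, stood at 4.52, 4.76 and 5.51 CPM in Dox libraries and at 9.28, 16 and 11.2 CPM in control libraries (log2 -1.31 ± 0.20 SE, edgeR adjusted p 0.00349). Pdp2, a phosphatase that activates pyruvate dehydrogenase, stood at 68.8, 65.6 and 56 CPM in Dox libraries and at 86.3, 86.1 and 81.8 CPM in control libraries (log2 -0.42 ± 0.07 SE, edgeR adjusted p 0.00551). Every Dox library was again the lower in these genes.

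The Dox effect on these gene groups was also measured in gastruloids. At day 3, 3 genes were higher (0.0169%) and 0 lower (0%) with Dox, and none of the 11 amino acid and stress genes or the 8 lysosomal genes described above was among them. Log2 fold changes at day 3 ranged from -0.11 to 0.06 for the first and from 0.01 to 0.11 for the second set. At day 5, 426 genes were higher (2.39%) and 417 lower (2.34%). There, 10 of the 11 amino acid and stress genes had a negative log2 fold change and 4 were called lower, and all 8 lysosomal genes had a positive one and 1, Atp6v0d1, was called higher. The difference of the Dox effect, day 0 minus day 5, passed the threshold for 584 of all genes (3.28%), for all 11 amino acid and stress genes and for all 8 lysosomal genes. Between day 0 and day 3 it passed for 10 of all genes (0.0562%) and for none of the 11 amino acid and stress genes. Their smallest edgeR adjusted p was 0.0521, for Phgdh and Aldh18a1. For these 11 genes the test thus did not establish that the effect at day 3 differed from that at day 0. Day 0 values chose both gene sets and are one side of the difference. The lists were drawn up with earlier results of all days known. From day 0 to day 5 the log2 values of Phgdh were 0.57, -0.02 and -0.40, and those of Mcoln1 were -0.31, 0.10 and 0.16.

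**Figure D5:**
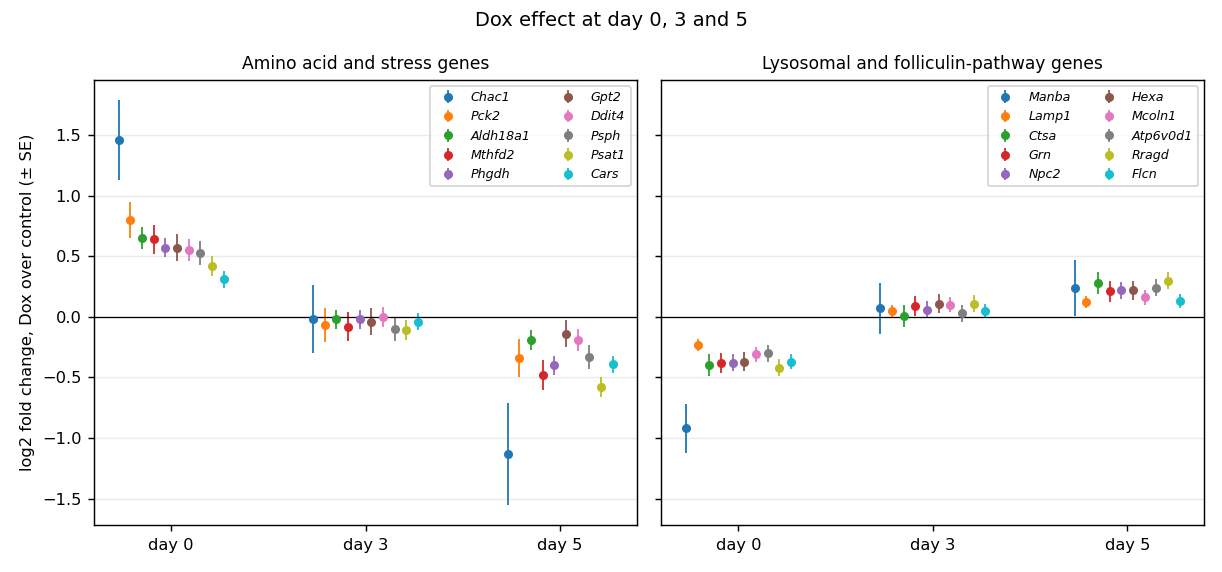
Log2 fold change of Dox over control at day 0, day 3 and day 5 with its standard error, for 10 called amino acid and stress genes (left) and 10 called lysosomal and folliculin-pathway genes (right). The genes of the left panel are above 0 at day 0, near 0 at day 3 and below 0 at day 5, as with Chac1 at 1.46, -0.02 and -1.13, and those of the right panel run the other way.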

How the data were processed

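Per the labels' protocols, a stranded kit was used on poly(A) RNA. GRCm38, RSEM 1.3.3, STAR 2.7.10a, DESeq2 1.38.2 and Trimmomatic are listed in the submitters' processing notes, and the annotation release and strand setting are not given in the sources used here. The deposited RSEM tables hold estimated counts (expected counts) per gene, not scaled to depth, and TPM computed by the authors. Of 55401 gene IDs, 55141 matched GENCODE M21. Estimated counts were rounded.

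All 18 libraries were fitted in edgeR 4.0.16 (R 4.3.3) with a mean per group, TMM factors and filterByExpr (minimum count 10, minimum total 15). The spread was pooled over days (12 residual degrees of freedom). The common biological coefficient of variation came to 0.09. It was 0.144 in the 6 day 0 libraries alone and 0.0873 there with the replicate block, so without a block pooling understated the day 0 spread. In limma-voom the variance weight was 0.538 for day 0, 1.48 for day 3 and 1.25 for day 5, and a low weight marks a wide spread. Of 62 named genes called besides Rnaseh1 and Hprt, 36 lost their call with these weights. With the day 0 libraries alone and no block, 61 lost it. TPM, as log2(TPM + 1) in limma 3.58.1, was an alternative planned for Rnaseh1 and Hprt and fitted over all genes that passed its filter. Other alternatives were DESeq2 1.42.0, limma-voom, other scaling and filters, and leaving out each library.

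The labels give the replicate number as a batch. After removal of group means, the correlation across genes between Dox and control libraries that share a number at day 0 was 0.233, 0.206 and 0.331. Between libraries of unlike number it was -0.252 to 0.0553. With 3 libraries a group such a pattern can also arise without pairing, so the block was an alternative and not the main fit. Replicates of a group differed by a median chi-square of 2.34 to 4.84 for each gene, so none was counted as a duplicate.

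Named genes were Rnaseh1, Hprt, the 10 higher and 10 lower called genes with the largest changes (at least 5 CPM, no placeholder symbol, no overlap), up to 12 firm genes each way, up to 6 called members of each list or else its 2 most abundant, and called genes within 100 kb of another. Genes outside these rules were picked after their values were seen. Some called genes of the lysosome list are not reported here by name. Members and lists were chosen with earlier results of these data known.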

Additional observations from a re-analysis of the deposited data

Results flagged for a closer look

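For 40 named genes the Dox effect on the log2 scale differed between day 0 and day 5, and for 8 between day 0 and day 3, by edgeR's test of the difference with adjusted p under 0.05 over all genes. Values are day 0 minus the later day. The genes called at day 0 were chosen by 1 side of this difference, and the cause was not tested.

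Rnaseh1 had 0.89 against day 3 and 0.89 against day 5, and Hprt 2.61 and 1.47, so induction was larger in stem cells. Among genes higher at day 0 the difference from day 5 was 2.59 for Chac1, 1.14 for Pck2, 1.12 for Mthfd2, 1.00 for Psat1, 0.98 for Phgdh, 0.85 for Psph, 0.83 for Aldh18a1, 0.74 for Ddit4, 0.71 for Gpt2, 0.70 for Cars and 0.34 for Slc7a6. It was 1.84 for Hhip, 0.92 for Nefh and -0.63 for Actn3, which was higher with Dox at both days. Eif4g3 had 0.57 against day 3 and 0.59 against day 5.

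Among lysosomal genes the difference from day 5 was -1.16 for Manba, -0.75 for Dpp7, a lysosomal dipeptidase, -0.68 for Ctsa, -0.60 for Npc2, -0.59 for Grn and -0.59 for Hexa. Further lower genes had -4.77 (Slc44a5), -3.85 (Pdzrn4), -1.72 (Nefm), -1.44 (Dusp10), -1.12 (Uap1l1), -0.91 (Fam181b), -0.89 (Id1), -0.82 (Acox3), -0.51 (Gss), -0.50 (Dnmt3b), -0.44 (Sec14l1), -0.40 (Lpcat1) and -0.38 (Mtss1l). Against day 3 the difference was -3.00 for Slc44a5, -1.78 for Patl2, -1.51 for Fam181b, -1.29 for Nefm and -0.59 for Mest.

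A further 4 genes were not called at day 0 and differed from day 5: Pax6 by 0.94, Mcm7 by 0.30, Hspd1 by 0.24 and Sparc by -0.68.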

How the results depend on the processing

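With all libraries 52 genes were higher and 133 lower with Dox. The replicate block gave 101 and 212, DESeq2 178 and 326, no filter 227 and 322, leaving out pair 2 of day 0 19 and 36, day 0 alone 2 and 1, and limma-voom with 1 variance weight per day 11 and 33. Leaving out 1 library gave 22 to 160 higher and 54 to 252 lower genes. None of the 185 called genes that an alternative tested changed sign in it. Each alternative reused the libraries that the calls rest on, so this too is no independent evidence. The block ended the call of Spry1 and of no other named gene at day 0. Rnaseh1 and Hprt were called in every fit. RLE factors, library size alone, limma-voom, at least 1 CPM in 3 libraries, and dropping rRNA and histone genes kept both counts within 1.5 times. On log2(TPM + 1) in limma, 52 genes were higher and 141 lower of 15761 tested, and 105 of the 185 were among them. Limits are the pooled spread, 3 libraries a group, and Dox replicate 2.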
